A study of Homo sapiens with 12 samples.

Results

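The genes described here are 10 members of the insulin-like growth factor (IGF) axis: the IGF-binding proteins *IGFBP2*, *IGFBP3*, *IGFBP4*, *IGFBP5* and *IGFBP6*, the receptors *IGF1R*, *IGF2R* and *INSR*, and the receptor adaptors *IRS1* and *IRS2*. They were picked by gene symbol from the 60612 rows used of a table of read counts per gene. The group was selected on the counts of *IGFBP5*, which differed in opposite directions with treatment in the 2 genotypes, so *IGFBP5* is described below without a test in any comparison and the other 9 members were tested.

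RNA-seq was performed in ZR-75-1, a human breast cancer cell line with oestrogen receptor, grown in medium with fetal bovine serum. Isogenic clones had been edited with CRISPR and either a non-targeting guide RNA (sgControl) or a guide against *RB1*, the gene of the retinoblastoma protein Rb. Each genotype received either 500 nM abemaciclib, which blocks CDK4 and CDK6, kinases acting on Rb, or an equal volume of the solvent DMSO, for 5 days. The 4 groups held 3 replicates each, 12 samples in all, with 39907318 to 81636393 counts per sample. The edited cells were sorted as single cells before expansion, so a difference between genotypes is also a difference between clones, and the 2 cannot be told apart. Nothing in the labels says how many clones stand behind the replicates.

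IGF1 and IGF2 are secreted growth factors that activate the receptor tyrosine kinase IGF1R, and insulin activates the closely related INSR. Both receptors recruit the adaptors IRS1 and IRS2, which pass the signal to PI3K, AKT and mTOR. IGF2R carries no kinase and clears IGF2 from the cell surface, while the secreted binding proteins hold IGFs in complexes that can shield them from the receptors or keep them near the cell. In oestrogen receptor-positive breast cancer cells the pathway is a known mitogenic signal, and several of its genes are known oestrogen targets. Only mRNA was measured here, and in bulk samples a change in the RNA per cell cannot be told apart from a change in the share of cells that carry the RNA.

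The labelled genotype was checked on *RB1*, whose mean normalized count (the count divided by the size factor of its library) was 4576.7 ± 368.1 (SD, n = 3) in sgControl cells in DMSO and 2372.0 ± 118.2 in abemaciclib, against 46.8 ± 6.26 and 54.0 ± 9.67 in the knockout. All 7 luminal epithelial markers (*ESR1*, *GATA3*, *FOXA1*, *KRT8*, *KRT18*, *KRT19* and *EPCAM*) had 6156.9 normalized counts or more in every library. The leukocyte marker *PTPRC* and the endothelial marker *PECAM1* reached at most 3.40. Of the fibroblast markers, *COL1A2* was at 2.26 or below throughout, and *COL1A1* held 1878.5 to 3031.4. The 4 fibroblast markers without *COL1A1* summed to 11.5 to 25.8 normalized counts in sgControl DMSO, 61.4 to 102.2 in sgControl abemaciclib, 17.6 to 27.3 in knockout DMSO and 26.0 to 39.3 in knockout abemaciclib. This sum was highest in the same group as *IGFBP3*, *IGFBP4*, *IGFBP5* and *IGF1R*, and its part in their values was not tested. Replicate 1 of sgControl in DMSO was the lowest of its group for 5 of the 10 members and the highest for 4.

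The positions of the members are from GENCODE release 44 on GRCh38. *IGFBP2* (chromosome 2, positions 216632828 to 216664436, plus strand) and *IGFBP5* (216672105 to 216695549, minus strand) are neighbours whose ends lie 7.67 kb apart, and *IRS1* (226731312 to 226799820, minus strand) is on the same chromosome. *IGFBP3* is at positions 45912245 to 45921874 of chromosome 7 (minus strand), *IGFBP4* at 40443450 to 40457725 of chromosome 17 (plus strand) and *IGFBP6* at 53097436 to 53102345 of chromosome 12 (plus strand). The receptor genes are *IGF1R* (chromosome 15, 98648539 to 98964530, plus strand), *IGF2R* (chromosome 6, 159969082 to 160113507, plus strand) and *INSR* (chromosome 19, 7112255 to 7294414, minus strand). *IRS2* is at 109752695 to 109786583 of chromosome 13 (minus strand). A gene on the other strand overlaps *IGFBP5*, *IGF1R*, *IGF2R* and *IRS2*, and a gene on the same strand overlaps *IGF1R* and *IGF2R*. Reads of these pairs may be mixed, since it is not stated whether the counting used strand.

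The 250 bases before the transcription start are printed for *IGFBP5*, *IGFBP3*, *IGFBP4*, *IRS1* and *IRS2*, because these members moved most with abemaciclib in sgControl cells once the sparsely counted *IGFBP6* is set aside. The sequences are from RefSeq (GRCh38.p14), which listed a start for all 10 members, and the outermost start was taken. The *IGFBP3* and *IGFBP6* windows lie wholly or mostly inside the gene bounds of GENCODE given above, which begin further upstream than the RefSeq starts. Each is written 5′ to 3′ on the strand of the gene, and capitals mark matches on either strand to 4 motifs. The first motif was the GC box GGGCGG. The second motif was the TATA box TATAAA. The third was the oestrogen receptor core GGTCA, and the fourth motif was the E2F site GGCGGGAA. The last base of a GC box can be the first of the next, as in *IRS2*.
IGFBP5 (chr2:216695550-216695799, minus strand): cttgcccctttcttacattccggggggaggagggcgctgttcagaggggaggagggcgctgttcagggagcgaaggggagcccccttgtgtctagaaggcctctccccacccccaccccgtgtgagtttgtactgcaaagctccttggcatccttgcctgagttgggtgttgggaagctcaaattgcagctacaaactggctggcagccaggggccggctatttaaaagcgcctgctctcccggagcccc
IGFBP3 (chr7:45921273-45921522, minus strand): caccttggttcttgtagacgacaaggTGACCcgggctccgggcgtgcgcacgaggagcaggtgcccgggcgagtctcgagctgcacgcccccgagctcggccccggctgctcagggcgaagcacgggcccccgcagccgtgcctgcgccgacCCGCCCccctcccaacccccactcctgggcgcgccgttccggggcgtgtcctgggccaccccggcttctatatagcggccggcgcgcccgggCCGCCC
IGFBP4 (chr17:40443200-40443449, plus strand): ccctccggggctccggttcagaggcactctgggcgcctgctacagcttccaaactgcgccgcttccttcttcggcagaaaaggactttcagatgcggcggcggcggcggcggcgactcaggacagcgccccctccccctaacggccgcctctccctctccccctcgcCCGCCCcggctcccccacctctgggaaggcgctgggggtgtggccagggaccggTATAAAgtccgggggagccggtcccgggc
IRS1 (chr2:226799821-226800070, minus strand): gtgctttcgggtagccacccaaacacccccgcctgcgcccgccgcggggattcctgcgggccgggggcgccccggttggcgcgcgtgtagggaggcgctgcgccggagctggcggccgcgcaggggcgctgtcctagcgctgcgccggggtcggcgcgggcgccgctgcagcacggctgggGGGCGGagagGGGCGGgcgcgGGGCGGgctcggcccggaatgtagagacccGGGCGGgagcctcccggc
IRS2 (chr13:109786584-109786833, minus strand): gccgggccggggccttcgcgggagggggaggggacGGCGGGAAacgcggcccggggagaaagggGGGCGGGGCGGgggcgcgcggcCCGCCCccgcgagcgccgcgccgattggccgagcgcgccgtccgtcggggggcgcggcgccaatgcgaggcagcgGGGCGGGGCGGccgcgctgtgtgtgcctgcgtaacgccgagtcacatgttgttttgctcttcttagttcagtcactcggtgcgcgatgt
The upstream windows of all 10 members were also searched for an AP-1 site with the letters TGANTCA. The last motif searched was a FOXO site, GTAAACA. The window held a GC box in 9 of the 10, all but *IGFBP5*, against 42.6% of the 35116 promoters in the table. The windows were 56.8% to 81.2% G and C, against a median of 58.0% over all promoters. The core oestrogen receptor motif stood in *IGFBP2*, *IGFBP3* and *IGF2R* (32.6% of all promoters hold one). The TATA box of *IGFBP4* began 29 bases before the start (10.7%), the FOXO site of *IGFBP6*, inside the GENCODE gene bounds, 186 bases before it (3.0%) and the E2F site of *IRS2* 215 bases before it (2.7%). No member held the AP-1 letters (6.6%), and the *IGFBP5* window held none of the 6 motifs. These matches describe letters in a window and are not evidence of binding.

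*IGFBP5*, which encodes a binding protein that also attaches to extracellular matrix, had the highest mRNA level of the 10 members in sgControl cells. Its normalized counts in sgControl DMSO were 162562, 183967 and 180534, and in sgControl abemaciclib 739223, 726706 and 601778. In knockout cells they were 24388, 24023 and 23725 in DMSO and 9965, 10333 and 9544 in abemaciclib. No group overlapped another, and the order was sgControl abemaciclib, sgControl DMSO, knockout DMSO, knockout abemaciclib. With abemaciclib the level was 3.92 times as high in sgControl (log2 1.97 ± 0.08 SE) and 2.42 times lower in the knockout (−1.27 ± 0.08). Knockout cells held 7.31 times less than sgControl cells in DMSO (log2 −2.87 ± 0.08) and 69.3 times less in abemaciclib (−6.11 ± 0.08). The gene took 0.324% ± 0.0373 (SD, n = 3) of all counts in sgControl DMSO and 1.15% ± 0.115 in sgControl abemaciclib, against 0.0435% ± 0.00114 and 0.0181% ± 8.02e-04 in the knockout. These differences are part of what selected the genes, so no p-value is attached to them and their standard errors are not to be read as a test.

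**Figure D1:**
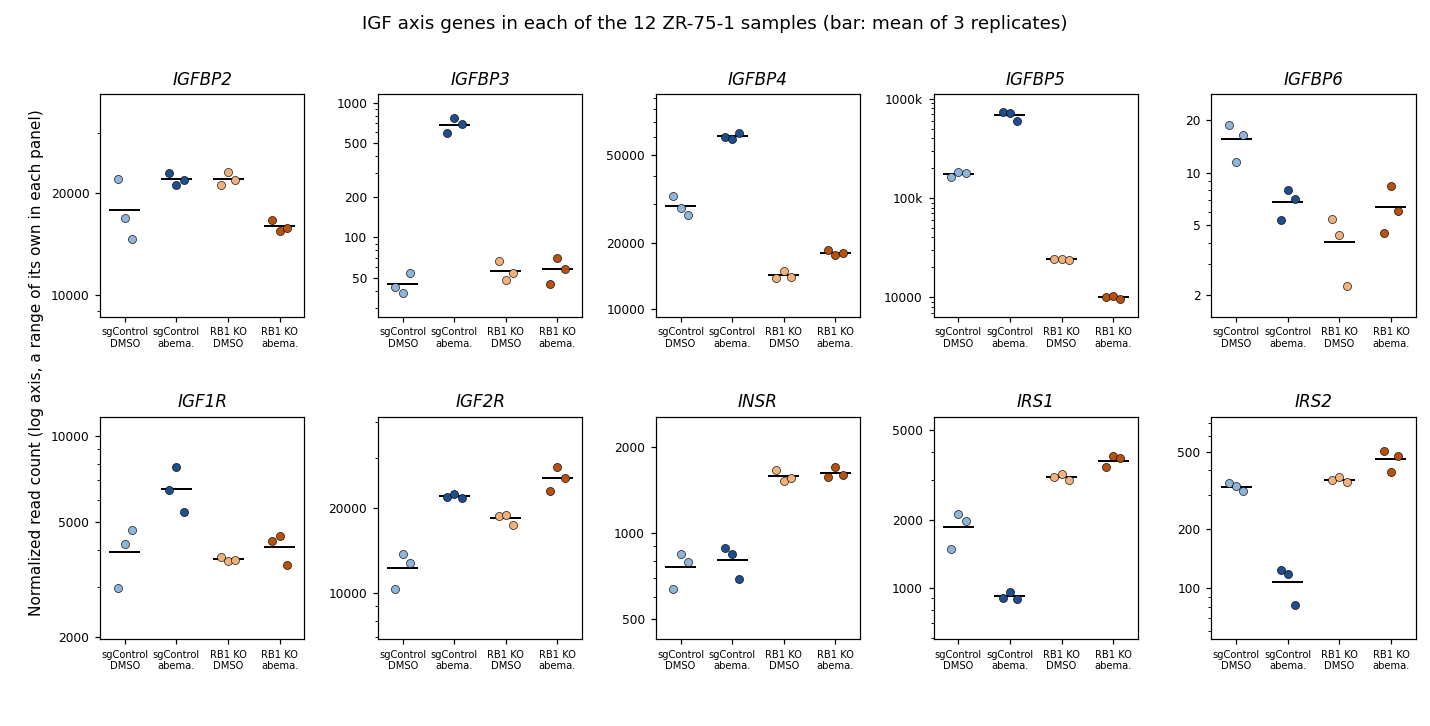
Normalized read counts of the 10 genes in each of the 12 samples, on log axes with a range of their own, with a bar at the mean of 3 replicates. *IGFBP5* falls into 4 separate groups from 601778 or more in sgControl abemaciclib to 10333 or less in knockout abemaciclib, *IGFBP3* is high in sgControl abemaciclib, and *IRS1* and *IRS2* are lowest there.

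*IGFBP3*, which encodes the main carrier of IGFs in blood, was sparsely expressed except in sgControl cells under abemaciclib. Its normalized counts were 42.8, 38.8 and 54.2 in sgControl DMSO and 592.7, 766.0 and 694.2 in sgControl abemaciclib. The knockout libraries held 66.9, 48.5 and 54.6 in DMSO and 45.3, 70.5 and 58.5 in abemaciclib. The 3 groups other than sgControl abemaciclib overlapped. *IGFBP3* rose 14.9-fold in sgControl (log2 3.90 ± 0.19 SE, DESeq2 adjusted p = 3.83e-96), and in the knockout the change was 0.05 with a 95% interval of −0.38 to 0.48 (adjusted p = 0.902). The difference between these responses was −3.85 ± 0.29 on the log2 scale (adjusted p = 5.41e-39). In DMSO the genotypes were not called different (0.30, 95% interval −0.13 to 0.73, adjusted p = 0.336), whereas in abemaciclib the knockout was lower by 11.7-fold (log2 −3.55, adjusted p = 7.18e-79).

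*IGFBP4* encodes a binding protein that mostly restrains IGF action and is cut by the protease PAPPA. Its normalized counts were 32380, 28761 and 26587 in sgControl DMSO, 60101, 58863 and 62367 in sgControl abemaciclib, 13893, 14928 and 14018 in knockout DMSO, and 18528, 17601 and 17990 in knockout abemaciclib. The 4 groups did not overlap, and their order matched that of *IGFBP5* except that the 2 knockout groups were exchanged. *IGFBP4* rose in both genotypes, 2.07-fold in sgControl (log2 1.05 ± 0.07, DESeq2 adjusted p = 1.89e-51) and 1.26-fold in the knockout (0.34 ± 0.07, adjusted p = 1.16e-05). The response was smaller in the knockout by 0.71 (interaction −0.71 ± 0.10, adjusted p = 2.61e-12). Knockout cells also held less *IGFBP4* without drug (log2 −1.03, adjusted p = 1.23e-48), and the gap was −1.74 in abemaciclib (adjusted p = 1.66e-140).

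*IGFBP2*, the neighbour of *IGFBP5*, encodes a binding protein found in many epithelial tumours. Normalized counts were 21925, 16883 and 14684 in sgControl DMSO, 22852, 21088 and 21756 in sgControl abemaciclib, 21038, 22959 and 21773 in knockout DMSO and 16650, 15410 and 15805 in knockout abemaciclib. The wide sgControl DMSO group overlapped each of the others, and only the 2 drug groups and the 2 knockout groups stood apart from each other. In the knockout, *IGFBP2* fell with abemaciclib (log2 −0.46 ± 0.11, DESeq2 adjusted p = 2.20e-04). It passed as higher in sgControl (0.30 ± 0.11, adjusted p = 0.0150), and the interaction was −0.76 ± 0.15 (adjusted p = 5.37e-06). The sgControl call was lost without replicate 2 (adjusted p = 0.0779) or replicate 3 (log2 0.17, adjusted p = 0.0987) of sgControl in DMSO, or with sgControl abemaciclib replicate 1 left out (0.0674). It was also lost with total-count factors (log2 0.17, adjusted p = 0.0772) and in a fit of the 2 groups alone (0.27, 0.0731). Leaving out sgControl DMSO replicate 1 gave 0.47 (adjusted p = 2.56e-13). The direction by genotype also turned with treatment: the knockout was higher in DMSO (0.30, adjusted p = 0.0232) and lower in abemaciclib (−0.46, adjusted p = 8.27e-05). The DMSO value was 0.47 without replicate 1 of sgControl (9.31e-13), and its call was lost without sgControl replicate 2 (0.0963) or 3 (log2 0.17, 0.127) or knockout replicate 2 (0.111) or 3 (0.0579), and in a fit of the 2 groups alone (0.0744).

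On the *IGFBP5* side no gene averaging 100 normalized counts or more was found within 500 kb. The nearest such genes on the *IGFBP2* side were *RPL37A*, *SMARCAL1* and *LINC01963*, at 53.6, 149.8 and 412.6 kb. Genes further out on that side were not examined. The log2 changes of the named neighbours with abemaciclib lay between −0.34 and 0.14 in sgControl and between −0.35 and −0.07 in the knockout. Between genotypes they lay between −0.14 and 0.10. The adjoining *IGFBP5* and *IGFBP2*, which face opposite directions, had sgControl values of 1.97 and 0.30, and *LINC01963* had −0.34 (DESeq2 adjusted p = 0.0463).

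*IGFBP6*, a binding protein that prefers IGF2, was barely detected, with 2 to 26 raw counts per library. Normalized counts were 18.6, 11.5 and 16.4 in sgControl DMSO, 5.39, 7.97 and 7.05 in sgControl abemaciclib, 5.46, 4.41 and 2.27 in knockout DMSO and 4.53, 8.42 and 6.05 in knockout abemaciclib. The sgControl DMSO group was above the other 3, which overlapped. *IGFBP6* passed the test only as lower in the knockout in DMSO (log2 −1.96, DESeq2 adjusted p = 0.0114), a call lost without replicate 3 of the knockout in DMSO (0.0723). Its response to abemaciclib was −1.18 in sgControl (95% interval −2.28 to −0.08, adjusted p = 0.0702) and 0.67 in the knockout (−0.72 to 2.07, adjusted p = 0.536). The interaction was 1.85 (adjusted p = 0.0909).

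Per kb of exon, which allows levels of different genes to be compared, the 5 binding protein mRNAs summed to 44214.5 ± 1011.8 normalized counts in sgControl DMSO and 138778.8 ± 11073.2 in sgControl abemaciclib. In the knockout the sums were 14833.4 ± 442.4 and 13101.7 ± 324.3. *IGFBP5* supplied 61.5% ± 4.36 of the sum in sgControl DMSO and 76.7% ± 2.49 in sgControl abemaciclib, but 25.1% ± 0.872 and 11.7% ± 0.596 in the knockout. *IGFBP4* was the largest component in the knockout, with 43.6% ± 0.418 in DMSO and 62.4% ± 0.363 in abemaciclib, and *IGFBP2* supplied 31.2% ± 0.545 and 25.7% ± 0.392. Without *IGFBP5* the sums were 17043.5 ± 2108.9 and 32185.0 ± 856.9 in sgControl and 11114.7 ± 454.2 and 11563.3 ± 339.9 in the knockout. Among 22932 genes ranked by level per kb, *IGFBP5* was at ranks 56 to 83 in sgControl DMSO, 20 to 21 in sgControl abemaciclib, 610 to 656 in knockout DMSO and 1504 to 1611 in knockout abemaciclib. These levels assume reads from the whole transcript, as the kit in the labels gives. A 3′ kit is described in the study's methods, with which counts would not scale with length. Without scaling to length, *IGFBP5* had the highest mean in knockout DMSO (24045.5), above *IGFBP2* (21923.4) and *IGFBP4* (14279.6). In knockout abemaciclib *IGFBP4* (18039.8) stayed the highest of the 5, above *IGFBP2* (15954.9) and *IGFBP5* (9947.3).

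**Figure D2:**
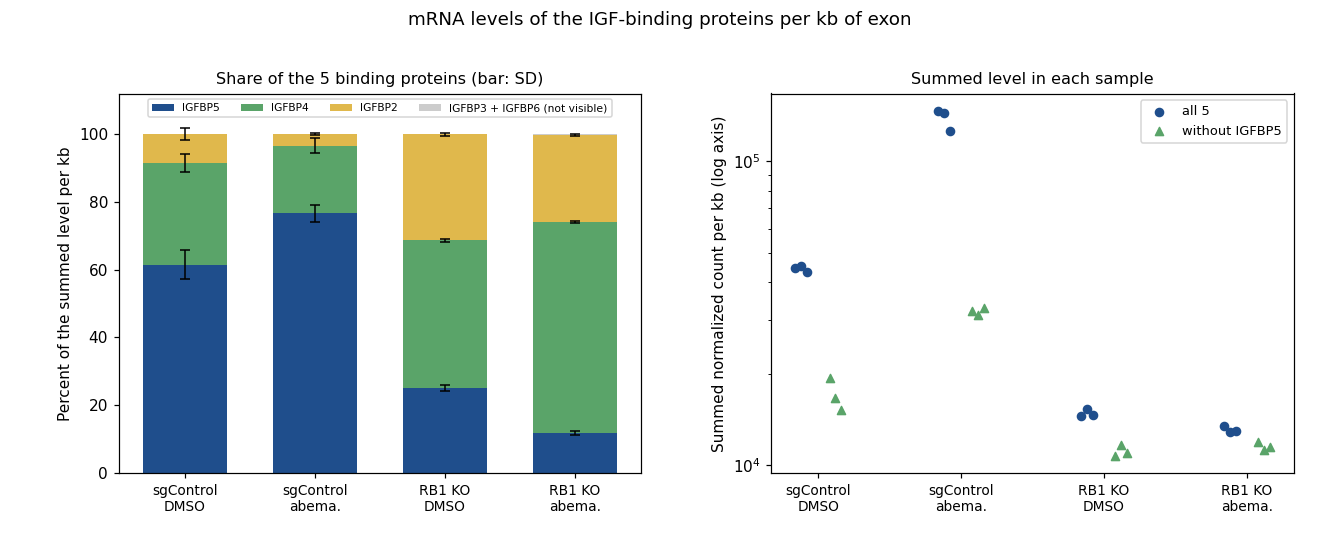
Left, the mean share of each binding protein in the summed level per kb of exon of the 5 (error bars, SD over 3 replicates); right, that sum in each sample with and without *IGFBP5*, on a log axis. The *IGFBP5* share is 61.5% and 76.7% in sgControl and 25.1% and 11.7% in the knockout, and the sums of all 5 in the knockout lie below those in sgControl in every sample.

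Of the receptors, *IGF1R* encodes the main IGF receptor kinase. Its normalized counts were 2965, 4201 and 4700 in sgControl DMSO, 6476, 7753 and 5432 in sgControl abemaciclib, 3794, 3673 and 3718 in knockout DMSO and 4300, 4483 and 3558 in knockout abemaciclib. The sgControl abemaciclib libraries were above all others, and the remaining groups overlapped. *IGF1R* rose 1.66-fold in sgControl (log2 0.73 ± 0.15, DESeq2 adjusted p = 3.42e-06), and its value in the knockout was 0.14 (95% interval −0.15 to 0.43, adjusted p = 0.531). The interaction was −0.59 ± 0.21 (adjusted p = 0.0150). That call was lost in turn when sgControl DMSO replicate 1 (0.0947), sgControl abemaciclib replicate 2 (0.0704) or knockout abemaciclib replicate 3 (0.0591) was left out, and with factors from total counts (−0.44, 0.236). Knockout cells held less *IGF1R* than sgControl cells in abemaciclib (−0.67, adjusted p = 1.86e-05), and in DMSO the value was −0.09 (adjusted p = 0.734).

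*IGF2R*, the clearance receptor for IGF2, had the highest level per kb of the 3 receptors in every group. Its normalized counts were 10348, 13765 and 12813 in sgControl DMSO, 21840, 22444 and 21569 in sgControl abemaciclib, 18723, 18897 and 17376 in knockout DMSO and 22857, 27928 and 25549 in knockout abemaciclib. The 4 groups did not overlap, and the drug groups were the highest. *IGF2R* rose with abemaciclib in both genotypes, by 0.83 ± 0.10 in sgControl (DESeq2 adjusted p = 4.22e-17) and 0.47 ± 0.10 in the knockout (adjusted p = 1.09e-05) on the log2 scale. The interaction was −0.36 ± 0.14 (adjusted p = 0.0219). It did not pass without replicate 2 of sgControl in abemaciclib (0.0513), replicate 1 (0.0530) or 2 (0.0610) of the knockout in DMSO or replicate 1 of the knockout in abemaciclib (0.0800), or with total-count factors (−0.22, 0.306). The knockout was higher in DMSO (0.57, adjusted p = 4.10e-08). In abemaciclib the value was 0.21 (adjusted p = 0.0506, and 0.0207 with a replicate block), and it passed when any sgControl DMSO replicate was left out (0.00128, 0.0314 and 0.0366 for replicates 1, 2 and 3) or replicate 1 of the knockout in abemaciclib (0.29, 0.0122). This value also passed in a fit of the 2 abemaciclib groups alone (0.23, 7.04e-04) and with total-count factors (0.33, 0.0113).

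*INSR*, the insulin receptor gene, separated by genotype. Normalized counts were 640.5, 847.9 and 796.3 in sgControl DMSO, 891.2, 843.1 and 691.5 in sgControl abemaciclib, 1663, 1522 and 1560 in knockout DMSO and 1578, 1707 and 1602 in knockout abemaciclib. Every knockout library was above every sgControl library, and within a genotype the treatments overlapped. *INSR* was 2.07-fold higher in the knockout in DMSO (log2 1.05 ± 0.11, DESeq2 adjusted p = 3.99e-20) and 2.02-fold higher in abemaciclib (1.01 ± 0.11, adjusted p = 1.82e-19). The 95% intervals of the drug responses were −0.13 to 0.30 in sgControl (adjusted p = 0.574) and −0.17 to 0.26 in the knockout (adjusted p = 0.822), and that of the interaction −0.34 to 0.26 (adjusted p = 0.872). The level of *IGF1R* over that of *INSR*, per kb, was 4.01 ± 0.514 in sgControl DMSO, 6.30 ± 0.769 in sgControl abemaciclib, 1.83 ± 0.0539 in knockout DMSO and 1.96 ± 0.208 in knockout abemaciclib. The ratio of *IGF2R* to *IGF1R* was 1.95 ± 0.243 and 2.10 ± 0.332 in sgControl and 3.03 ± 0.146 and 3.85 ± 0.575 in the knockout.

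Both adaptors fell with abemaciclib in sgControl cells. *IRS1*, which links the activated receptors to PI3K, had normalized counts of 1487, 2115 and 1982 in sgControl DMSO, 903.1, 957.3 and 889.7 in sgControl abemaciclib, 3108, 3194 and 2995 in knockout DMSO and 3413, 3816 and 3742 in knockout abemaciclib. The 4 groups did not overlap and stood in the reverse order of *IGFBP5*. *IRS1* fell 2.03-fold in sgControl (log2 −1.02 ± 0.11, DESeq2 adjusted p = 1.82e-20). The knockout response was 0.24 (95% interval 0.03 to 0.44, adjusted p = 0.0706), which passed when sgControl DMSO replicate 1 (2.01e-04), 2 (0.0408) or 3 (0.0471) was left out. It also passed in a fit of the 2 knockout groups alone (0.23, 8.79e-05). The interaction was 1.26 ± 0.15 (adjusted p = 6.12e-16). *IRS1* was higher in the knockout by 0.73 in DMSO (adjusted p = 7.26e-11) and by 2.00, or 3.99-fold, in abemaciclib (adjusted p = 5.62e-76).

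*IRS2*, an adaptor of the same family, had normalized counts of 344.4, 332.3 and 314.3 in sgControl DMSO, 122.9, 116.9 and 81.9 in sgControl abemaciclib, 357.9, 369.1 and 349.0 in knockout DMSO and 503.9, 394.8 and 473.1 in knockout abemaciclib. The 4 groups did not overlap, and the sgControl abemaciclib libraries were the lowest. *IRS2* fell 3.09-fold in sgControl (log2 −1.63 ± 0.15, DESeq2 adjusted p = 3.41e-28). In the knockout it passed as higher (0.35 ± 0.13, adjusted p = 0.0285), but not without replicate 1 (0.0848), 2 (0.0650) or 3 (0.105) of the knockout in DMSO or replicate 1 (0.167) or 3 (0.112) of the knockout in abemaciclib. The interaction was 1.98 ± 0.20 (adjusted p = 7.83e-23). Between genotypes the value was 0.12 in DMSO (adjusted p = 0.548) and 2.10 in abemaciclib, where the knockout was higher (adjusted p = 1.90e-46). *IRS1* over *IRS2* per kb was 4.61 ± 0.949 and 7.16 ± 1.49 in sgControl and 7.03 ± 0.0419 and 6.61 ± 1.19 in the knockout.

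*IRS2* lies in a part of chromosome 13 where genes differed between the clones. Of 25 genes averaging 100 normalized counts or more within 5 Mb of it, 24 were below 0 for knockout against sgControl in DMSO, with a median log2 value of −0.68 and 22 called lower, against a median of −0.01 over 11262 genes on other chromosomes. In abemaciclib the median of the 25 was −0.79, with 17 called lower and 6 higher. Their median responses to abemaciclib were 0.03 in sgControl and −0.04 in the knockout. The genotype values of *IRS2* thus lay above the median of its surroundings, and the part of this regional difference in them was not tested.

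Counted over the 9 tested members, 5 rose and 2 fell with abemaciclib in sgControl cells, where 24.8% of all tested genes were called higher and 24.6% lower. The rising members were *IGFBP2*, *IGFBP3*, *IGFBP4*, *IGF1R* and *IGF2R*, and the falling ones *IRS1* and *IRS2*. In the knockout, *IGFBP4*, *IGF2R* and *IRS2* were called higher and *IGFBP2* lower, 3 and 1 of 9, beside 15.0% and 15.1% of all genes. The 11262 genes on other chromosomes had met the same minimum average as those near *IRS2*. Of these, 3915 were called higher and 4303 lower in sgControl, so calls were more frequent among them than among all genes. In the knockout 2068 of them were called higher and 2560 lower. The median log2 change of the members was 0.30 in sgControl and 0.24 in the knockout, beside 0.01 and 0.02 over all genes tested. All 9 had an adjusted p in each comparison.

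The responses differed between genotypes for 7 of the 9 members, higher in the knockout for *IRS1* and *IRS2* and lower for *IGFBP2*, *IGFBP3*, *IGFBP4*, *IGF1R* and *IGF2R*, beside 21.0% and 20.2% of all genes. *IGFBP6* and *INSR* were not called. Knockout against sgControl in DMSO gave 4 members higher (*IGFBP2*, *IGF2R*, *INSR* and *IRS1*) and 2 lower (*IGFBP4* and *IGFBP6*), beside 16.2% and 15.2%. In abemaciclib, *INSR*, *IRS1* and *IRS2* were higher and *IGFBP2*, *IGFBP3*, *IGFBP4* and *IGF1R* lower, 3 and 4 of 9, beside 27.5% and 26.4%. Of the 11262 genes counted above, 3324 were called higher and 3414 lower for the interaction. For genotype 2423 were higher and 2498 lower in DMSO, and 4109 and 4259 in abemaciclib. Median values of the members were −0.36 for the interaction, 0.30 for genotype in DMSO and −0.11 for genotype in abemaciclib, beside 0.03, −0.00 and 0.02 over all genes. The comparisons share samples, so these counts are not independent of each other.

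**Figure D3:**
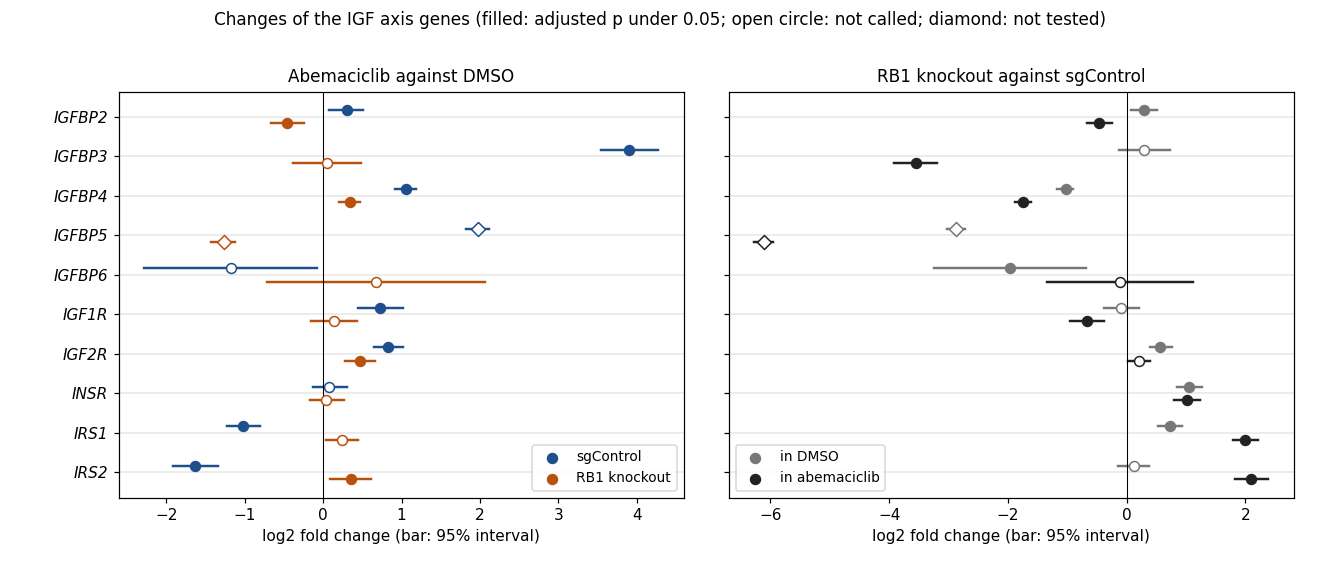
Log2 fold changes of the 10 genes with 95% intervals, for abemaciclib against DMSO in each genotype (left) and for knockout against sgControl in each treatment (right). Filled circles passed an adjusted p of 0.05, open circles did not, and diamonds mark the untested *IGFBP5*. Its counts selected the genes, so its intervals are not to be read as a test. *IGFBP3* is at 3.90 in sgControl and 0.05 in the knockout, and *INSR* is near 0 for drug and near 1.05 and 1.01 for genotype.

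The ligands were nearly absent from the libraries. *IGF2* had 0 to 1 raw counts per library and the insulin gene *INS* and the insulin receptor-related gene *INSRR* had 0 in all 12, a floor that allows at most 3 counts each. *IGF1* had 6, 8 and 7 counts in sgControl abemaciclib, 0, 0 and 1 in sgControl DMSO, none in knockout DMSO and 0 to 3 in knockout abemaciclib. Its mean in sgControl abemaciclib was 2.69 times a floor of 3 counts per library in sgControl DMSO (DESeq2 adjusted p of the response = 0.0208). *IGFBP1* was at 0 except for 3 to 6 counts in sgControl abemaciclib, a mean of 1.82 times the same floor. Its response in sgControl was not called (adjusted p = 0.0685). The third adaptor measured, *IRS4*, had 8 to 23 counts per library in the other 3 groups and 0 in every sgControl abemaciclib library. Its mean in sgControl DMSO was 4.21 times a floor of 3 counts in sgControl abemaciclib (adjusted p of the response = 7.73e-06). *IGFBP7* and *IGFBPL1* had at most 5. These ratios to a floor leave out the counting error of the higher group.

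A list of 64 other genes of the pathway was examined beside the members, 62 of them with a count. With abemaciclib 25 rose and 13 fell in sgControl cells, of 59 with an adjusted p, and 15 rose and 8 fell in the knockout, of 54. Over all genes tested, 24.8% rose and 24.6% fell in sgControl, and 15.0% rose and 15.1% fell in the knockout. Of the 11262 genes on other chromosomes that met the minimum average used near *IRS2*, 3915 rose and 4303 fell in sgControl. In the knockout 2068 of them rose and 2560 fell. Among 9 regulators of receptor signalling, some of which restrain it (such as *GRB14* and *SOCS3*) and some of which promote it (such as *SH2B1* and *PTPN11*), 6 rose and 2 fell in sgControl and 5 rose in the knockout. Of 14 genes for PI3K, AKT and their regulators, 6 rose and 5 fell in sgControl, and 4 rose and 2 fell in the knockout. For mTOR and its outputs the counts were 4 higher and 2 lower of 12 in sgControl and 2 and 3 in the knockout, and for FOXO and GSK3 genes 2 and 1 of 5 and 1 and 1. Among the proteases that cut binding proteins and their inhibitors, 3 of 7 with an adjusted p rose in sgControl, and in the knockout 1 of 6 rose and 1 fell. The responses of 13 of 58 were higher in the knockout than in sgControl and those of 17 were lower, beside 21.0% and 20.2% of all genes. Knockout against sgControl gave 23 higher and 6 lower of 55 in DMSO, beside 16.2% and 15.2%, and 24 and 16 of 59 in abemaciclib, beside 27.5% and 26.4%.

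In sgControl cells the largest rises among the called genes of the list that averaged at least 100 normalized counts were those of *DEPTOR*, which encodes an inhibitor of mTOR, *PIK3IP1*, an inhibitor of PI3K, and *GRB14*, an adaptor that blocks the insulin receptor kinase. *DEPTOR* went from 712.1 ± 34.7 to 2441.2 ± 113.2 normalized counts (log2 1.78, DESeq2 adjusted p = 4.75e-137), *PIK3IP1* from 483.2 ± 43.6 to 1619.6 ± 74.4 (1.74, adjusted p = 1.48e-81) and *GRB14* from 114.6 ± 21.4 to 338.5 ± 5.39 (1.57, adjusted p = 7.93e-19). The responses of *PIK3IP1* (interaction −1.54, adjusted p = 2.68e-31) and *GRB14* (−1.56, adjusted p = 7.34e-08) were smaller in the knockout, where their means were 759.1 and 69.8 in DMSO and 873.0 and 70.8 in abemaciclib. *GRB14* reached that minimum average only with the sgControl abemaciclib libraries. *DEPTOR* also rose in the knockout, from 356.6 ± 16.3 to 630.1 ± 21.7 (0.82, adjusted p = 1.71e-19), but by less than in sgControl (interaction −0.96, adjusted p = 1.24e-16).

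The largest falls in sgControl were those of *IGF2BP1* and *IGF2BP2*, which encode proteins that bind *IGF2* and other mRNAs, and of *SESN1*, a sestrin that restrains mTOR. *IGF2BP2* fell from 292.9 ± 30.6 to 47.9 ± 13.7 (log2 −2.64, DESeq2 adjusted p = 1.53e-53), and *IGF2BP1* from 33.1 ± 8.12 to 4.32 ± 2.41 (−2.89, adjusted p = 7.88e-11). In the knockout *IGF2BP2* had 409.3 ± 31.0 and 480.1 ± 32.6 and *IGF2BP1* 310.3 ± 31.5 and 291.4 ± 5.72, and the interactions were 2.87 (adjusted p = 4.54e-40) and 2.80 (adjusted p = 5.11e-09). *IGF2BP1* reached the minimum average for named genes only with the knockout libraries. It had 3 to 8 raw counts per library in sgControl abemaciclib, so the sizes of its fall and interaction rest on few counts. *SESN1* went from 479.1 ± 44.7 to 232.7 ± 13.2 (−1.05, adjusted p = 3.32e-21). *FOXO1*, a transcription factor that AKT keeps out of the nucleus, had the next largest positive interaction (0.98, adjusted p = 1.78e-04), with means of 176.6 and 87.2 in sgControl and 173.0 and 167.5 in the knockout. It also lies on chromosome 13.

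In knockout cells the largest rises under the same minimum were those of *SOCS3*, a suppressor of cytokine and insulin signalling, from 156.6 ± 13.8 to 593.8 ± 74.6 (log2 1.92, DESeq2 adjusted p = 2.06e-37), and *SESN3*, from 462.2 ± 32.5 to 1185.7 ± 120.2 (1.36, adjusted p = 2.00e-33). *FOXO4*, a further FOXO factor, fell from 630.5 ± 40.8 to 287.6 ± 35.1 (−1.13, adjusted p = 2.14e-26). *STC2*, which encodes an inhibitor of the IGFBP4 protease PAPPA, fell from 1146.5 ± 67.0 to 611.3 ± 19.0 (−0.91, adjusted p = 3.20e-23), while in sgControl its means were 2113.7 ± 150.4 in DMSO and 3865.7 ± 313.9 in abemaciclib, and the interaction was −1.78 (adjusted p = 5.42e-50). *STC2* and *IGFBP5* thus had means in the same order across the 4 groups. *PAPPA* had at most 2 raw counts in any library. *EIF4EBP1*, a translation repressor under mTOR control, fell by less (−0.35, adjusted p = 0.00427).

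**Figure D4:**
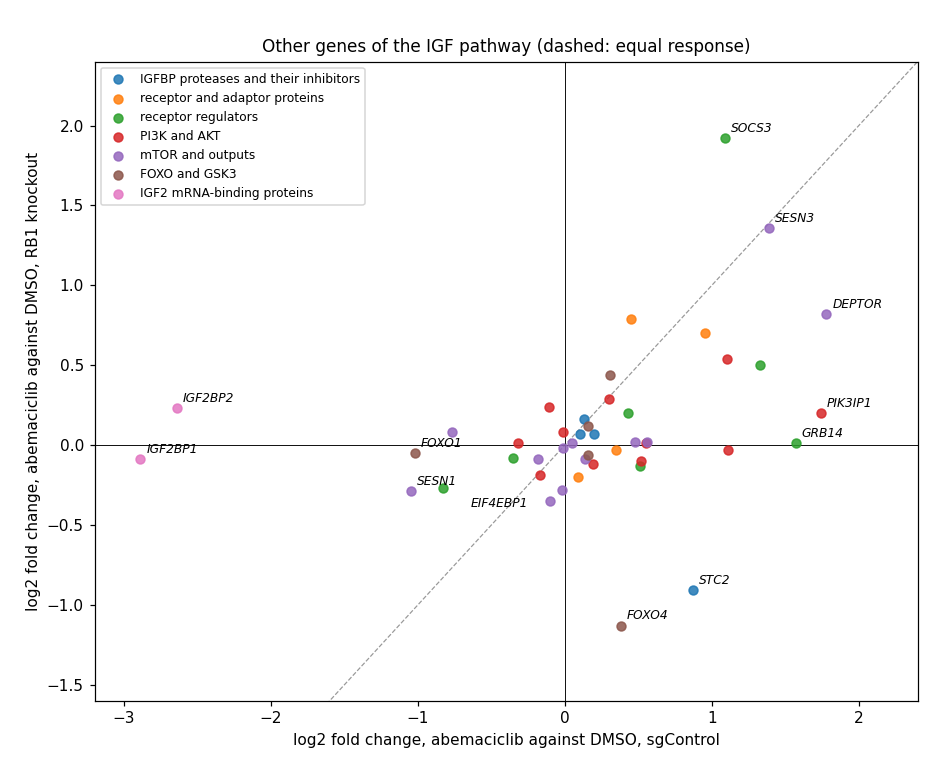
Log2 fold changes with abemaciclib of the 45 other pathway genes that averaged 100 normalized counts or more, in sgControl cells (horizontal axis) and knockout cells (vertical axis), coloured by role, with equal responses on the dashed line. *IGF2BP1* and *IGF2BP2* are at −2.89 and −2.64 in sgControl and near 0 in the knockout. *IGF2BP1* reached that average only with the knockout libraries. *STC2* is above 0 in sgControl and at −0.91 in the knockout.

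The genes whose pattern was most like that of *IGFBP5* were sought by the Pearson correlation of log2(normalized count + 1) over the 12 samples among 11884 genes. They were *ABCC11* (r = 0.998), *CREB3L1* (0.995), *FURIN* (0.995), *C4orf19* (0.994) and *LFNG* (0.994), and 283 genes had r of at least 0.95. The samples fall into 4 groups that dominate such values, and the 3 replicates of a group share their treatment and clone type. Mean normalized counts of *ABCC11*, a transporter gene, were 3751.4 and 12690.0 in sgControl and 922.3 and 530.1 in the knockout, in DMSO and abemaciclib respectively. Those of *CREB3L1*, which encodes a membrane-bound transcription factor, were 5677.4 and 11348.7, and 2387.7 and 1482.6. *FURIN*, the gene of a proprotein convertase, had 3212.1 and 5644.6, and 899.2 in knockout abemaciclib against 1487.7 in DMSO. Correlation disregards the size of a change. With abemaciclib the log2 values in sgControl and the knockout were 0.25 and −0.27 for *C4orf19* and 0.51 and −0.22 for *LFNG*. Those of *IGFBP5* were 1.97 and −1.27. With rank correlation, 1 of the 5 most alike genes, *ABCC11*, was the same. Of the members, *IGFBP4* had the highest r with *IGFBP5* (0.920) and *IRS1* the lowest (−0.967), followed by *INSR* (−0.892) and *IRS2* (−0.858).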

How the data were processed

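Total RNA of 12 ZR-75-1 samples was sequenced. Per the labels the authors aligned reads to hg38 with STAR 2.7.5b and made raw counts per gene with featureCounts 2.0.1, and they deposited these counts as 1 table without normalization or pooling. Reads were assigned with GENCODE annotation by gene symbol, and whether strand was used is not given in the sources used here. The labels name a directional kit that covers whole transcripts, whereas the study's methods describe a 3′ kit, so levels per kb depend on which was used. Of 60656 rows, 44 without a gene name were left out (0.0% of counts). No column lacked a sample.

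Titles of the samples gave groups and replicate numbers. Nothing in the labels says whether replicates were separate clones, so p-values measure the spread between these samples. A single DESeq2 1.42.0 model (R 4.3.3) with group as its term covered all genes and 12 samples, with median-of-ratios size factors and no shrinkage. The 5 contrasts were tested in it by two-sided Wald tests with Benjamini-Hochberg adjustment over the genes left by independent filtering, and adjusted p under 0.05 was called. All p-values of single genes are adjusted p from this fit unless another is named. The tests were tested on simulated data with 200 changed genes. Intervals at 95% are the estimate with its standard error under a normal approximation. Alternatives were total-count factors, a filter of at least 10 counts in 3 samples, no independent filtering, a replicate block, only the groups compared, each replicate left out and edgeR 4.0.16. The deviations of same-numbered samples from their group means correlated above 0.1 in every pair for genotypes in abemaciclib (0.15, 0.26 and 0.11), and in the other comparisons at least 1 pair did not (for the sgControl response 0.25, 0.22 and −0.08).

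The members and gene lists were chosen with earlier results of these data known. All 10 members are named in every comparison. From the list of 64 other pathway genes the text names, in each drug response and the interaction, up to 3 per direction with the largest change among those called, averaging 100 normalized counts or more, and with no overlap between replicates (for the interaction, within a genotype). The genes most like *IGFBP5* are the 5 with the highest Pearson correlation, at the same minimum of 100. Levels per kb used merged exons of GENCODE release 44 on GRCh38, the genome build of the counts.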

Additional observations from a re-analysis of the deposited data

Results flagged for a closer look

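The responses to abemaciclib of 7 of the 9 tested members passed a direct test of a difference between genotypes, given here as the response in the knockout minus that in sgControl on the log2 scale. Over all genes tested, 21.0% passed as higher and 20.2% as lower. Of the 11262 genes on other chromosomes that met the minimum average used near *IRS2*, 3324 passed as higher and 3414 as lower. With total-count factors 5 of the 9 passed, without *IGF1R* (adjusted p = 0.236) and *IGF2R* (adjusted p = 0.306). The difference was −3.85 for *IGFBP3* (DESeq2 adjusted p = 5.41e-39), −0.76 for *IGFBP2* (adjusted p = 5.37e-06) and −0.71 for *IGFBP4* (adjusted p = 2.61e-12). For the receptors it was −0.59 for *IGF1R* (adjusted p = 0.0150) and −0.36 for *IGF2R* (adjusted p = 0.0219). For the adaptors it was 1.26 for *IRS1* (adjusted p = 6.12e-16) and 1.98 for *IRS2* (adjusted p = 7.83e-23). For *IGFBP5* every sgControl library was higher with drug and every knockout library lower, a difference of −3.25 that was not tested because it selected the genes.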

How the results depend on the processing

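Of 45 results (9 members in 5 comparisons), 35 kept their call in every alternative that gave an adjusted p, 17 or 18 of them for each result since a fit of the compared groups alone has no interaction, and no called direction was reversed. The other 10 changed call in some fits, 26 times losing it and 17 times gaining it, and the cause was not tested. They were *IGFBP2* for the sgControl response and for genotype in DMSO, *IGFBP6* for the sgControl response, the interaction and genotype in DMSO, *IRS1* and *IRS2* for the knockout response, *IGF1R* and *IGF2R* for the interaction and *IGF2R* for genotype in abemaciclib. *IGFBP6* got no adjusted p for genotype in DMSO without sgControl DMSO replicate 2, nor for the knockout response in the fit of the groups compared alone.

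Factors from total counts moved the median of all genes by −0.13 (log2) for the sgControl response, 0.14 for the interaction and 0.11 for genotype in abemaciclib, and gave *IGFBP5* values of 1.84, −3.10 and −6.00 there. With a replicate block, *IRS1* passed for the knockout response (adjusted p = 0.0339), *IGF1R* did not for the interaction (adjusted p = 0.0955) and *IGF2R* passed for genotype in abemaciclib (adjusted p = 0.0207), and it changed no other member's call. *IGFBP6* passed for the sgControl response with edgeR (adjusted p = 0.0106), total-count factors (0.0404) and the filter on low counts (0.0389), and with edgeR for the interaction (0.0256). Levels per kb moved beyond their SD in 18 of 40 cases when the longest transcript replaced merged exons. *IGFBP6*, at 2 to 26 counts, and *IGF1* and *IGFBP1* are limited by depth.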

Other observations

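Several pathway genes outside the naming rule, picked after their values were seen, also responded to abemaciclib. *AKT2*, an AKT kinase gene, had log2 values of 0.52 in sgControl (DESeq2 adjusted p = 1.48e-35) and −0.10 in the knockout (adjusted p = 0.0481), and its interaction was −0.62 (adjusted p = 7.15e-25). *PIK3R1*, which encodes a regulatory PI3K subunit that binds IRS proteins, rose in sgControl by 1.11 (adjusted p = 9.69e-41) with a knockout value of −0.03 (adjusted p = 0.831) and the interaction was −1.15 (adjusted p = 3.34e-21). *GRB10*, an adaptor that damps the receptors, rose in both, by 1.33 (adjusted p = 1.66e-66) and 0.50 (adjusted p = 8.29e-09).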
